A study of Mus musculus with 6 samples.

Results

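Transcripts of the CD3 chains, the T cell receptor constant genes and the T cell co-receptors were followed in splenic natural killer (NK) cells that had been sorted as lacking CD3 on their surface. The genes were chosen by name: Cd3d, Cd3e, Cd3g, Cd247, Trac, Trbc1, Trbc2, Cd28, Cd5 and Cd4, with earlier results of these same libraries known. Of these 10 genes, 8 had a row in the table of 8520 genes, and Cd5 and Cd4 were not analysed here. Because the contrast between the NK populations was known when the genes were picked, their differences are given as a description, without a test. The other gene lists used below were also chosen with earlier results known. Their calls and adjusted p values are thus read as a description too.

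Cells sorted as Ly49G+ (positive for Ly49G, negative for Ly49C/I) were compared with cells sorted as Ly49I+ (the reverse), with 3 libraries each. Both came from C57BL/6Ncr mice (strain label C57BL/6) aged 6 to 8 weeks with no treatment named, and NK cells enriched from the spleens of 20 mice were sorted as CD3-negative and NK1.1-positive. The second antibody does not tell Ly49C from Ly49I, so the sort separates Ly49G from that pair together. The labels call the 3 libraries of a population biological replicates without saying which mice fed which library, so the errors below measure the spread between these libraries. All 15 listed NK markers, Ncr1, Klrb1c and Eomes among them, had a row, and their summed level was 16904 to 17083 CPM (counts per 1000000 reads of the library) in Ly49G+ and 17530 to 18190 CPM in Ly49I+ libraries. Library totals, as solved from the deposited values, ran from 33599679 to 40892154 reads. By limma at a Benjamini-Hochberg adjusted p of 0.05, among the 15 NK markers 1 was higher in Ly49G+ (Eomes) and 4 were higher in Ly49I+ (Styk1, Gzmb, Prf1 and Tbx21), beside 3.59% of all genes called in either direction. Eomes lost its call without any 1 of the Ly49G+ libraries (limma adjusted p of 0.0516 to 0.0737) and Gzmb without Ly49G+ replicate 2 (0.0569). Prf1 and Tbx21 lost theirs without any 1 of the Ly49G+ libraries, without Ly49I+ replicate 2 (0.054 and 0.0518) and without the intensity trend (0.0691 and 0.101). With the replicate number as a block Nkg7 was called too, as higher in Ly49I+ (0.0134), and likewise without Ly49I+ replicate 1 (0.0193). Ly49I+ replicate 2 had the highest sum of 8 myeloid markers, at 1831 CPM against 1073 to 1182 in the other libraries.

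The T cell receptor recognises antigen through a pair of variable chains, alpha with beta or gamma with delta, each joined to a constant region (Trac for alpha, Trbc1 or Trbc2 for beta, Trdc for delta). It cannot signal alone and depends on CD3 gamma, delta and epsilon (Cd3g, Cd3d, Cd3e) and on the zeta chain (Cd247), whose cytoplasmic tails carry the tyrosine motifs that the kinases Lck and Zap70 use. NK cells build no T cell receptor, but they use the zeta chain as an adaptor of activating receptors such as NKp46. Transcripts of unrearranged receptor loci and of CD3 chains inside the cell are known from NK cells and their precursors.

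Cd3g, Cd3d and Cd3e lie side by side on chromosome 9, within 40092 bases. Cd3g and Cd3d point away from each other, with start sites 1338 bases apart by the gene coordinates. The 250 bases before the start site are shown for the CD3 genes, which differed together between the populations, and for Cd247, which did not follow them. They are RefSeq windows on GRCm38.p6, found for 4 of the 8 genes, at chr9:44980432-44980681 (minus strand), chr9:44981536-44981785 (plus strand), chr9:45009612-45009861 (minus strand) and chr1:165788431-165788680 (plus strand). The windows follow their own RefSeq start sites, which for Cd247, Cd3e and Cd3d lie inside the gene coordinates given below. All of the Cd247 window and a part of the Cd3e and Cd3d windows thus fall within the gene. Capitals mark matches to the E-box CANNTG, the letters bound by E proteins.
Cd3g: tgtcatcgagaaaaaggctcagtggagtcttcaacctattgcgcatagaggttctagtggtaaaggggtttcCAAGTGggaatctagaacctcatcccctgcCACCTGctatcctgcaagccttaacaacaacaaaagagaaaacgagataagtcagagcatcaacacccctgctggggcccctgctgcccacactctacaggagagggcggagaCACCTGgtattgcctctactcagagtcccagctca
Cd3d: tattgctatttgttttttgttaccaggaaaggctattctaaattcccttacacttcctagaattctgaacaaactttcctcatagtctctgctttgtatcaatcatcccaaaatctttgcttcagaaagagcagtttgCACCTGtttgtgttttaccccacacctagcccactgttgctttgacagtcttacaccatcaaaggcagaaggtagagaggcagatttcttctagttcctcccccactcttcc
Cd3e: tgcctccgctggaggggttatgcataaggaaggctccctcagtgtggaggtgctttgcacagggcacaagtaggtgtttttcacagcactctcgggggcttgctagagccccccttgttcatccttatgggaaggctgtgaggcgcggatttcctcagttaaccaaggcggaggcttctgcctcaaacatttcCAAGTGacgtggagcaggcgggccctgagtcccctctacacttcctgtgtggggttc
Cd247: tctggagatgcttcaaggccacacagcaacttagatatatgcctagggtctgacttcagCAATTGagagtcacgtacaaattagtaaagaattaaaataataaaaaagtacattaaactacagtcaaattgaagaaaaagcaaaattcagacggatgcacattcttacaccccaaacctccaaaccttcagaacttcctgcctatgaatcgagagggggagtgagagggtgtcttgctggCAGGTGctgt

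The E-box was found at 3 places for Cd3g, 1 for Cd3d, 1 for Cd3e and 2 for Cd247, and 66.2% of all 32851 RefSeq windows of this length held at least 1. Both strands were searched, and CANNTG reads as CANNTG on either. The ETS core GGAA had 2, 6, 5 and 1 matches in Cd3g, Cd3d, Cd3e and Cd247 (93.4% of windows). The TCF core CTTTG had 4 matches in Cd3d, 1 in Cd3e and 0 in Cd3g and Cd247 (48.6% of windows). The GATA letters AGATAA occurred once, in Cd3g (9.99% of windows). In Cd3e and in Cd3g a GGAA match shared 1 base with an E-box, and no other matches of these motifs overlapped in the 4 windows. A match describes the sequence only.

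Cd3e, the epsilon chain that pairs with both gamma and delta (gene 12501, GRCm38.p6 chromosome 9, 44998735 to 45009663), had the largest log2 difference among the 8 genes. Its level was 9.27, 18.5 and 11.5 CPM in replicates 1, 2 and 3 of Ly49G+, against 0.592, 1.06 and 1.22 CPM in the Ly49I+ replicates. The lowest Ly49G+ library was thus far above the highest Ly49I+ library. Those values rest on 311, 669 and 428 reads in Ly49G+ and on 20, 43 and 47 reads in Ly49I+ libraries. The exact 95% Poisson interval, which covers counting error only, was 8.26 to 10.3 CPM in the lowest Ly49G+ library and 0.885 to 1.60 CPM in the highest Ly49I+ library. The log2 difference of Ly49G+ minus Ly49I+ was 3.78 ± 0.40 (SE, n = 3 each), a 13.7-fold higher level in Ly49G+ cells. The annotated genes Gm48719 (opposite strand) and Gm48720 (same strand) overlap Cd3e, and how reads were assigned there is not known.

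Cd3g, the gamma chain (gene 12502, chromosome 9, 44969572 to 44980431), had 27.3, 43.2 and 33.6 CPM in the Ly49G+ and 9.80, 11.7 and 10.2 CPM in the Ly49I+ libraries. Cd3d, the delta chain (gene 12500, chromosome 9, 44981769 to 44987052), had 12.2, 18.1 and 15.4 CPM in Ly49G+ and 6.63, 5.91 and 5.40 CPM in Ly49I+ libraries. In neither gene did the groups overlap, and in both Ly49G+ replicate 2 was the highest library and Ly49G+ replicate 1 the lowest of its group. The log2 differences were 1.70 ± 0.16 for Cd3g and 1.34 ± 0.19 for Cd3d (SE, n = 3 each), or 3.24-fold and 2.52-fold.

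Cd247, the zeta chain (gene 12503, chromosome 1, 165779952 to 165871153), was nearly level between the populations. It stood at 246, 247 and 255 CPM in Ly49G+ and at 252, 255 and 292 CPM in Ly49I+ libraries. The groups overlapped, and the log2 difference was -0.09 ± 0.08 (SE, n = 3 each). Pou2f1, which also has a row, overlaps Cd247 on the opposite strand, and 1.94% of the 100-base windows of Cd247 transcripts occur in the annotated gene Gm16565.

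**Figure D1:**
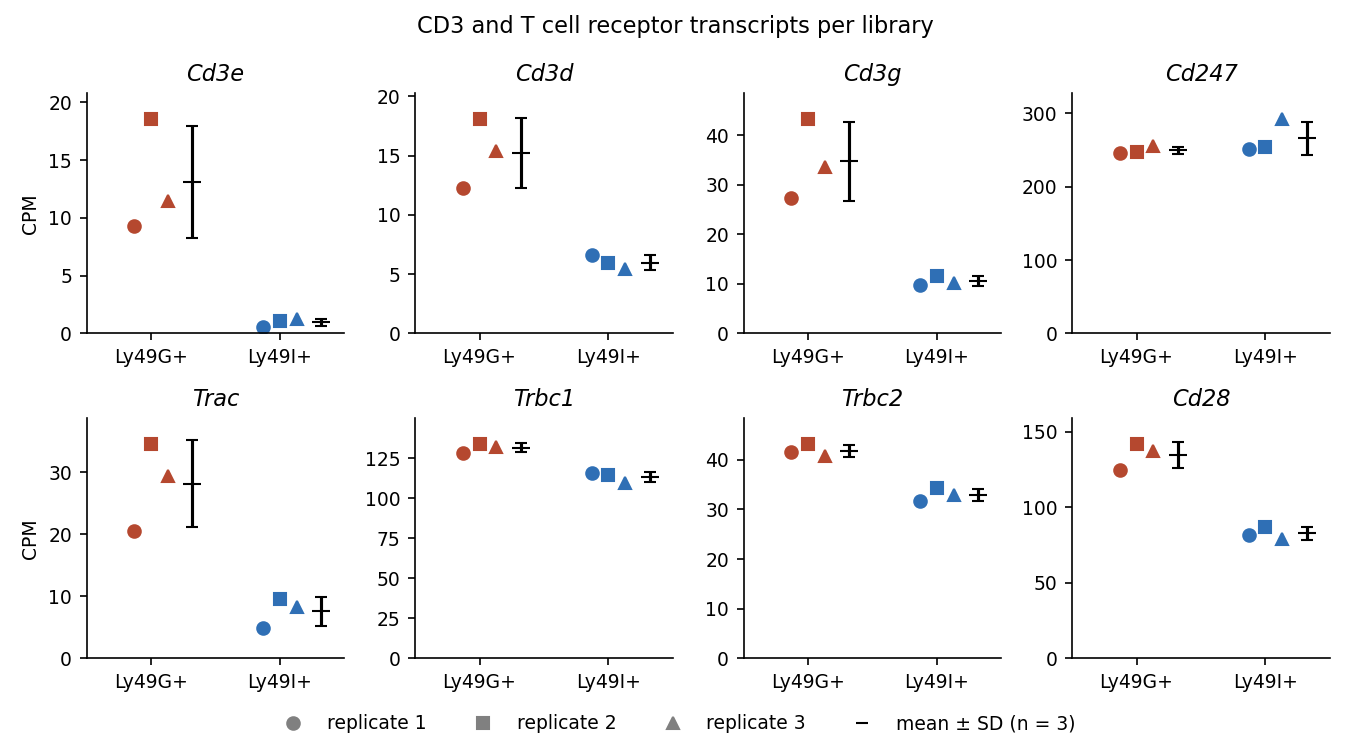
Level of each of the 8 genes in CPM (vertical axes, starting at 0) in the 3 Ly49G+ and 3 Ly49I+ libraries, with a marker shape for each replicate and bars for mean ± SD. Ly49G+ points lie above all Ly49I+ points in every gene but Cd247, whose lowest and highest libraries are 246 and 292 CPM.

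Trac, the constant gene of the alpha chain (gene 100101484, chromosome 14, 54220521 to 54224198), had 20.6, 34.6 and 29.4 CPM in the Ly49G+ libraries. In the Ly49I+ libraries it had 4.95, 9.57 and 8.19 CPM. The groups did not overlap, and within each population replicate 2 was highest and replicate 1 lowest. The log2 difference was 1.92 ± 0.25 (SE, n = 3 each), or 3.78-fold.

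The beta constant genes differed little between the populations. Trbc1 (gene 100125262, chromosome 6, 41538219 to 41539665) had 128, 134 and 132 CPM in Ly49G+ and 116, 115 and 109 CPM in Ly49I+ libraries. Trbc2 (gene 100125263, chromosome 6, 41546730 to 41548181) had 41.5, 43.2 and 40.8 CPM in Ly49G+ and 31.7, 34.3 and 32.8 CPM in Ly49I+ libraries. The libraries of each population lay close together and the groups did not overlap. The log2 differences were 0.22 ± 0.07 for Trbc1 and 0.35 ± 0.09 for Trbc2 (SE, n = 3 each). The Trbc genes are near copies: 28.2% of the 100-base windows of Trbc1 and 30.9% of those of Trbc2 occur in the other, so how reads were split between them is uncertain.

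Cd28, the co-stimulatory receptor of T cells (gene 12487, chromosome 1, 60746388 to 60773359), had 125, 142 and 137 CPM in Ly49G+ and 81.8, 87.0 and 79.0 CPM in Ly49I+ libraries. The groups did not overlap, and the log2 difference was 0.70 ± 0.08 (SE, n = 3 each), or 1.63-fold.

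As a count, 7 of the 8 genes had higher levels in every Ly49G+ library than in any Ly49I+ library, and 12.5% of all 8520 genes showed the same separation in that direction (25.8% in either direction). In the limma fit across all genes, at a Benjamini-Hochberg adjusted p of 0.05, 5 of the 8 (Cd3g, Cd3e, Cd28, Trac and Cd3d) were on the side higher in Ly49G+, where 1.82% of all genes were, and 0 of the 8 on the side higher in Ly49I+, where 1.77% were (3.59% in either direction). Trbc2 joined them with median-of-ratios centring, with quantile normalization and with the replicate number as a block, making 6 of 8 each time. With the block that stands beside 5.69% of all genes higher in Ly49G+, 5.96% higher in Ly49I+ and 11.7% in either direction. With median-of-ratios centring 174 of all 8520 genes were called higher in Ly49G+ and 325 in either direction. With quantile normalization these numbers were 178 and 323. The genes were chosen with this contrast known, so these counts carry no weight as a test. Every gene in the table reached 10 CPM in at least 2 libraries. Cd3e, Cd3d and Trac did so only in Ly49G+ libraries and so entered through the population in which they were high, while the other 5 also reached it in at least 2 Ly49I+ libraries. The second highest library was lowest for Cd3e among the 8, at 11.5 CPM.

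The 8 genes did not differ in one proportion. Set against Cd3g in the same library, which removes the effect of depth, Cd3e reached 33.9%, 42.8% and 34.2% of the Cd3g CPM, not scaled to length, in Ly49G+ replicates 1, 2 and 3. In the Ly49I+ replicates it reached 6.04%, 9.13% and 11.9%. The log2 ratio of Cd3e to Cd3g was -1.44 ± 0.19 in Ly49G+ and -3.52 ± 0.50 in Ly49I+ (SD, n = 3 each), without overlap. The ratio of Cd3d to Cd3g ran the other way, at -1.18 ± 0.07 in Ly49G+ and -0.82 ± 0.22 in Ly49I+. Trac kept nearly the same ratio to Cd3g, at -0.31 ± 0.11 in Ly49G+ and -0.53 ± 0.40 in Ly49I+, and its groups overlapped. Cd3g was 11.1%, 17.5% and 13.2% of the Cd247 CPM in Ly49G+ and 3.90%, 4.58% and 3.49% in Ly49I+ libraries.

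**Figure D2:**
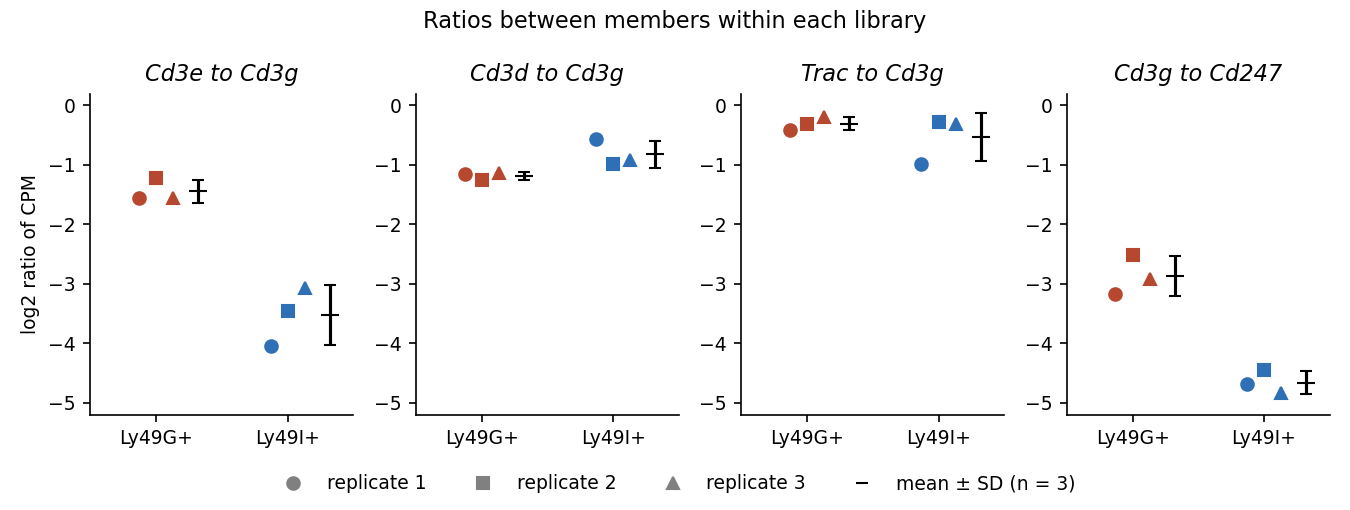
Log2 ratio of CPM (vertical axis) for 4 pairs of genes within each library, Ly49G+ left and Ly49I+ right, with bars for mean ± SD over 3 libraries. The Cd3e to Cd3g ratio averages -1.44 in Ly49G+ and -3.52 in Ly49I+, while the Trac to Cd3g points of the populations overlap.

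In absolute terms the largest gap was that of Cd28, 51.9 CPM more in Ly49G+ on average, followed by Cd3g (24.2 CPM), Trac (20.6 CPM), Trbc1 (18.3 CPM), Cd3e (12.1 CPM), Cd3d (9.24 CPM) and Trbc2 (8.92 CPM). For Cd247 the mean difference of Ly49G+ minus Ly49I+ was -16.5 CPM. Levels of different genes were compared per kilobase of the longest coding or constant-gene transcript in GENCODE. In Ly49G+ cells Trbc1 led at 178 ± 3.94 CPM per kb, then Cd247 at 84.4 ± 1.73 and Trbc2 at 60.5 ± 1.78 (SD, n = 3). Cd3g (34.0 ± 7.85), Cd28 (30.9 ± 2.02) and Trac (30.2 ± 7.57) followed with ranges that overlap, and Cd3d (9.41 ± 1.81) and Cd3e (8.96 ± 3.31) were lowest, also with overlapping ranges. In Ly49I+ cells the order was Trbc1 (154 ± 4.59), Cd247 (90.0 ± 7.57), Trbc2 (47.6 ± 1.87), Cd28 (19.0 ± 0.93), Cd3g (10.3 ± 0.95), Trac (8.10 ± 2.54), Cd3d (3.70 ± 0.38) and Cd3e (0.655 ± 0.223), all in CPM per kb. Of the neighbours in that order only Cd3g and Trac overlapped. With all annotated exons as the length, Cd247 (46.8 CPM per kb in Ly49G+) stood between Trbc2 and Trac, and Cd3g was at 10.6 and Cd3e at 3.21 CPM per kb in Ly49G+ cells.

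Within Ly49G+ the spread was wide for the 4 members with the largest log2 differences and narrow for the rest. The coefficient of variation over the 3 Ly49G+ libraries was 36.9% for Cd3e, 25.1% for Trac, 23.1% for Cd3g and 19.2% for Cd3d, against 6.52% for Cd28 and 2.05% to 2.94% for Cd247, Trbc1 and Trbc2. Replicate 2 was the highest Ly49G+ library in 7 of the 8 genes and replicate 1 the lowest in 7 of 8. The share of all genes with this order was not counted, and for Cd247, Trbc1 and Trbc2 the order rests on that narrow spread. Without Ly49G+ replicate 2 the Cd3e log2 difference was 3.50, that of Trac 1.76, that of Cd3g 1.53 and that of Cd3d 1.20. In such bulk libraries a larger share of cells that carry a transcript and more of it per cell cannot be told apart.

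The genes outside the 8 whose levels over the 6 libraries were most like those of Cd3e, Cd3g or Trac were Il7r, the interleukin 7 receptor chain, and Kbtbd11, Myb, Sox6, Adgrg5, Ikzf2, Emb and Xcl1. Likeness was Pearson's r of log2 CPM over 6 libraries, given without a p, for genes whose highest and lowest library differed by at least 1 on the log2 scale. Such a choice favours genes that differ between the populations in the same direction, so a high r largely restates that difference. Sox6, at 5.36 to 6.49 CPM in Ly49I+, reached 10 CPM only in Ly49G+ libraries and so entered through them. For Cd3e the closest was Il7r (r = 0.992), for Cd3g Kbtbd11 (r = 0.999) and for Trac the adhesion receptor gene Adgrg5 (r = 0.989). Il7r stood at 63.8, 89.0 and 72.0 CPM in Ly49G+ and at 17.4, 20.3 and 18.7 CPM in Ly49I+ libraries. Kbtbd11 stood at 161, 199 and 180 CPM in Ly49G+ and at 91.6, 103 and 94.0 CPM in Ly49I+ libraries. Myb, which encodes a transcription factor of progenitors, had 92.7, 113 and 107 CPM in Ly49G+ and 54.6, 61.1 and 56.2 CPM in Ly49I+ libraries. In all 3 of these genes the groups did not overlap and replicate 2 was highest within each population. Cd3e itself was highest in replicate 3 within Ly49I+.

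**Figure D3:**
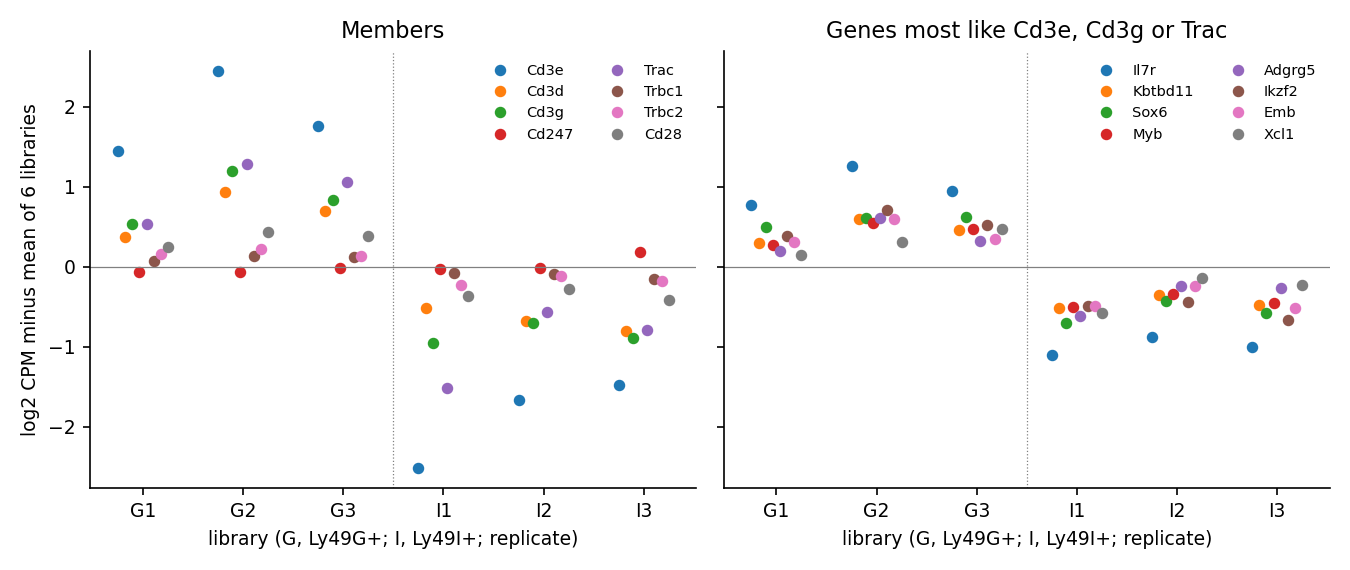
Log2 CPM minus the mean of the 6 libraries (vertical axis) in each Ly49G+ and Ly49I+ library for the 8 genes (left) and for the 8 genes most like Cd3e, Cd3g or Trac (right). Cd3e spans the widest range of the genes drawn, Cd247 stays near 0, and Il7r is highest in Ly49G+ replicate 2 as Cd3e is.

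The nearest genes with a row on each side of the CD3 cluster did not show its difference. Counted from the Cd3e start site, BC049352, Il10ra and Cep164 began at 186, 244 and 757 kb. Kmt2a, Atp5l and Ube4a ended at -128, -88.9 and -44.0 kb. Any gene between them without a row was not examined. The 3 nearest genes with a row on each side, Kmt2a, Atp5l and Ube4a to the left and BC049352, Il10ra and Cep164 to the right, had log2 differences of -0.31 to -0.06. By limma with Benjamini-Hochberg adjustment 0 of these 6 passed, with 2 at an unadjusted p under 0.05, namely Il10ra and Cep164. Il10ra also passed with quantile normalization (0.0402) and without Ly49I+ replicate 1 (0.0472). With the replicate block both passed, as lower in Ly49G+ (limma adjusted p = 0.017 for Il10ra, log2 difference -0.26, and 0.0361 for Cep164, -0.31).

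**Figure D4:**
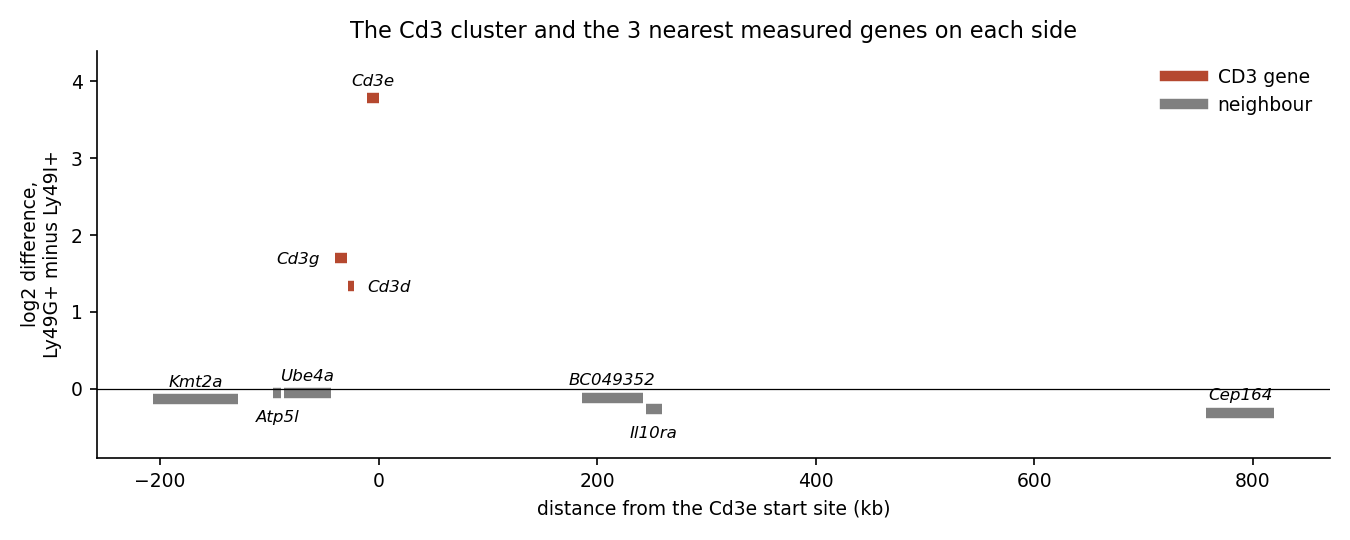
Log2 difference of Ly49G+ minus Ly49I+ (vertical axis) for the CD3 genes and 6 neighbouring genes, each drawn over its extent in kb from the start site of Cd3e (horizontal axis). The CD3 genes lie at 1.34 to 3.78 and the neighbours at -0.31 to -0.06.

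Other T cell receptor segments had rows as well, 12 in all with Trac, Trbc1 and Trbc2, and this set was picked after its values were seen. Trdc, the delta constant gene (gene 100123473, chromosome 14, 54142851 to 54146108), had 214, 213 and 234 CPM in Ly49G+ and 162, 178 and 156 CPM in Ly49I+ libraries. Per kb it stood at 56.9 ± 3.06 CPM in Ly49G+ cells, against 42.8 ± 2.84 CPM per kb in Ly49I+ cells (n = 3 each, SD), below Trbc1. The first beta diversity and joining segments, which lie just before Trbc1, were near level: Trbd1 had 14.4, 12.9 and 14.4 CPM in Ly49G+ and 12.8, 12.9 and 15.7 CPM in Ly49I+ libraries. Trbj1-1, Trbj1-2, Trbj1-3, Trbj1-4 and Trbj1-6 had log2 differences between -0.09 and 0.25, and the delta segment Trdv2-2 had 0.13.

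In the list of gamma delta and NKT cell genes, 4 of 18 had a row. Of these 4 the test called 1 as higher in Ly49G+, where 1.82% of all genes were, and 2 as higher in Ly49I+, where 1.77% were. It left 1 uncalled. This list and those below were chosen with earlier results known, so their calls carry no weight as a test. Trdc rose (log2 difference 0.41 ± 0.08, SE, limma adjusted p = 0.0158). Trdv4, a variable segment of the delta locus, fell to 24.5 to 28.7 CPM in Ly49G+ against 38.4 to 40.7 CPM in Ly49I+ libraries (-0.56 ± 0.10, limma adjusted p = 0.0099). Zbtb16, which encodes the NKT and innate lymphoid factor PLZF, was also lower in Ly49G+ (-0.41 ± 0.09, limma adjusted p = 0.033). Maf did not pass (0.06). The list median was -0.17, against -0.02 over all genes. Without Ly49G+ replicate 1 or 3 only Trdv4 was called (0.0323 and 0.0455), and without Ly49G+ replicate 2 none of the 4. Zbtb16 also lost its call without Ly49I+ replicate 2 (0.131) or 3 (0.0637), and Trdc without the intensity trend (0.0501).

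Of 24 T cell surface and lineage genes 12 had a row. The test called 3 of them higher in Ly49G+, where 1.82% of all genes were, and 0 lower, where 1.77% were. The other 9 stayed uncalled. Il7r rose by 1.99 ± 0.13 (SE, limma adjusted p = 1.84e-05), Tcf7, a transcription factor of T and NK precursors, by 0.63 ± 0.11 (0.0104) and Dgka, a diacylglycerol kinase, by 0.33 ± 0.07 (0.032). The T cell adhesion gene Cd2 (-0.04), the co-stimulatory receptor gene Icos (-0.06), the surface glycoprotein gene Thy1 (0.06) and the T lineage factor genes Bcl11b (-0.02), Lef1 (-0.09), Gata3 (0.01) and Satb1 (0.00) did not pass, as log2 differences. The list median was 0.04, against -0.02 over all genes. Its summed level was 1940 to 2174 CPM in Ly49G+ and 1723 to 1916 CPM in Ly49I+ libraries. Cd8a, Cd8b1 and Cd6 were not analysed here, and the part of T cells in the CD3 difference was not tested. With the block 5 were called, all higher in Ly49G+, where 5.69% of all genes were, with Camk4 and Ubash3a joining. Camk4 reached 10 CPM only in Ly49G+ libraries. Camk4 also passed without the intensity trend (0.0242) and Ubash3a without Ly49I+ replicate 3 (0.0345). Without Ly49G+ replicate 2 or 3 only Il7r was. Dgka also lost its call without Ly49G+ replicate 1 (0.0681), without Ly49I+ replicate 2 (0.0542) and without the intensity trend (0.0831).

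The calls among genes of the signalling chain that CD3 feeds are read against the 3.59% of all genes called in either direction. Of 8 proximal kinases, among them Lck (0.07), Fyn (0.18), Zap70 (0.25) and Syk (-0.06), 0 passed limma with Benjamini-Hochberg adjustment, 1 (Fyn) had an unadjusted p under 0.05, and the list median log2 difference was 0.05. Without Ly49I+ replicate 3, in which Zap70 was 101 CPM against 62.1 and 64.1 in the other Ly49I+ libraries, Zap70 passed (0.48, limma adjusted p = 0.0247). Lck, which phosphorylates the CD3 tails, had 484, 480 and 526 CPM in Ly49G+ and 430, 464 and 529 CPM in Ly49I+ libraries, with overlap.

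Among 22 of 23 adaptors and effectors with a row, the test called 1 higher in Ly49G+ and 0 lower, with 21 uncalled and a list median of -0.03. The 1 was Rasgrp1, an activator of Ras downstream of the T cell receptor, at 371, 397 and 426 CPM in Ly49G+ and 263, 293 and 261 CPM in Ly49I+ libraries (0.55 ± 0.08, limma adjusted p = 0.00432). The adaptor genes Lat (-0.12) and Lcp2 (0.12) did not pass. With the block Nck2 (-0.49, limma adjusted p = 0.00469) and Plcg2 (-0.27, 0.0173) also passed, as lower in Ly49G+. Plcg2 passed too without Ly49I+ replicate 1 (0.0228), and Carmil2 (0.40) without Ly49I+ replicate 3 (0.66, limma adjusted p = 0.0299). Of 12 measured negative regulators the test called 1 higher in Ly49G+ and 0 lower, with 11 uncalled and a list median of -0.04. It was Sla, whose product lowers T cell receptor levels (0.52 ± 0.09, limma adjusted p = 0.0112), a call lost without Ly49G+ replicate 2 (0.0864) or replicate 3 (0.0643). With the block Ptpn22 (0.27) rose and Pag1 (-0.25) fell as well, and Ptpn22 passed without Ly49I+ replicate 1 (0.0373).

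Among 7 measured adaptors and zeta-linked NK receptors, the test called 1 lower in Ly49G+ and 0 higher, with 6 uncalled and a list median of -0.02. The list name does not mean that every receptor in it uses zeta. Fcer1g, an adaptor chain of NKp46 and CD16, had 442, 458 and 480 CPM in Ly49G+ libraries. In Ly49I+ libraries it had 530, 594 and 621 CPM (-0.34 ± 0.08, limma adjusted p = 0.0441). That call was lost without the intensity trend (0.1) and on leaving out each library in turn, with the exception of Ly49I+ replicate 1. Ncr1 (-0.14), which encodes NKp46, Fcgr3 (0.03), which encodes CD16, and Tyrobp (-0.01), the adaptor DAP12, did not pass. Of the CD28 family and its ligands Icos, Icosl and Cd274 had rows and 0 of these 3 passed limma with Benjamini-Hochberg adjustment, with 0 at an unadjusted p under 0.05.

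**Figure D5:**
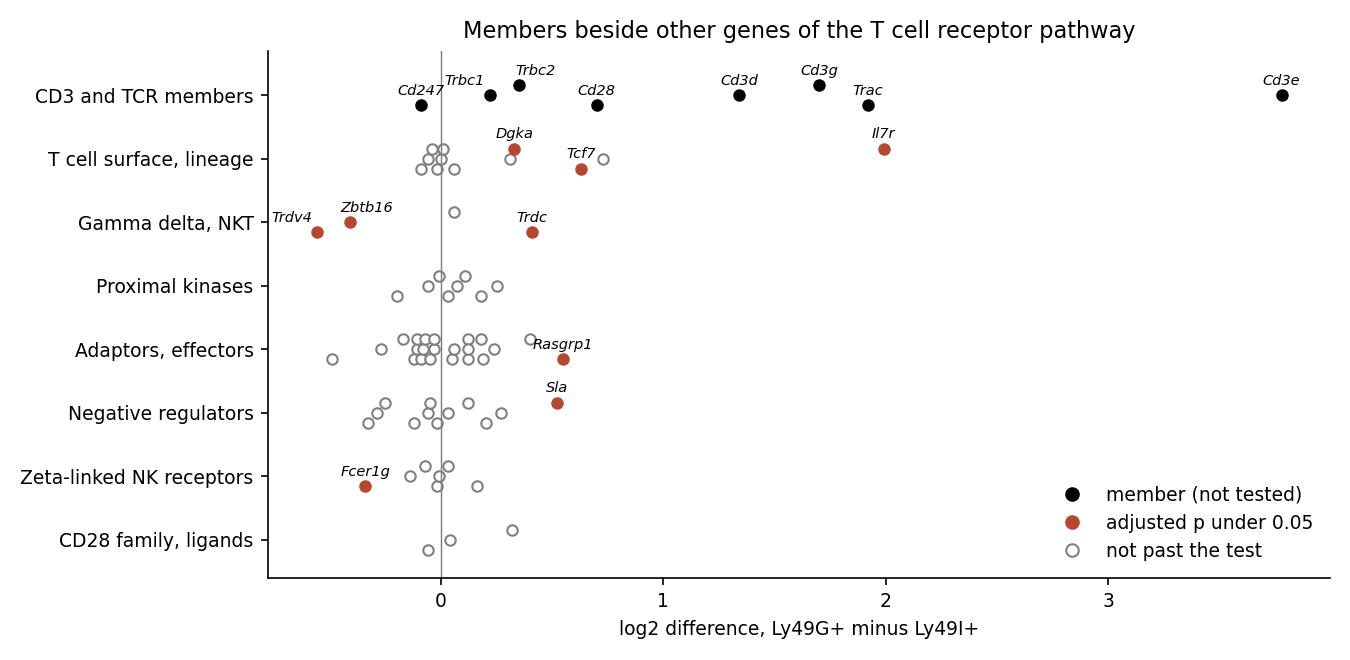
Log2 difference of Ly49G+ minus Ly49I+ (horizontal axis) for the 8 genes, shown without a test, and for the other lists of the pathway, with filled circles for genes past an adjusted p of 0.05 in limma. Most pathway genes lie near 0, and Il7r, at 1.99, lies farthest from it outside the 8.

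Markers of other cell types were counted in the same fit, which called 1.82% of all genes higher in Ly49G+ and 1.77% higher in Ly49I+. Of the B cell list 6 of 16 genes had a row, 1 was called higher in Ly49G+ (Cd22) and none lower, and their summed level was 329 to 490 CPM in Ly49G+ and 223 to 538 CPM in Ly49I+ libraries. Cd22 lost its call without Ly49G+ replicate 2 (0.0761) or 3 (0.0643). Ighm was called as higher in Ly49G+ with the block (0.0367) and without Ly49I+ replicate 2 (0.0169). Of the myeloid and dendritic cell list 8 of 18 had a row, and 5 were called higher in Ly49I+ (Ace, Treml4, Sirpa, Csf1r and Lyz2) and 0 in Ly49G+. Ace, Treml4, Sirpa, Csf1r and Cst3 reached 10 CPM only in Ly49I+ libraries and so entered through the population in which they were high. The direction of this count was thus partly set by which genes have a row. With the robust prior Ace (0.0562), Csf1r (0.091) and Lyz2 (0.125) lost their calls, and Lyz2 also without Ly49G+ replicate 2 (0.0569). With the block 7 were higher in Ly49I+, Cd68 (0.0411) and Cst3 (0.0477) joining, and 1, Itgax, was higher in Ly49G+ (0.0185). The block called 5.96% of all genes higher in Ly49I+ and 5.69% higher in Ly49G+. Itgax also passed with quantile normalization (0.0415), and Cst3 without Ly49I+ replicate 1 (0.00787). Of the erythroid and platelet list 0 of 10 had a row. The sum of the myeloid genes was 1073 to 1182 CPM in Ly49G+ and 1095 to 1831 CPM in Ly49I+ libraries, most of it from Itgax, which NK cells also express. Without Ly49I+ replicate 2, the library with the highest B cell and myeloid sums, the Cd3e log2 difference was 3.89, the Trac log2 difference 2.12, that of Cd3g 1.77 and that of Cd3d 1.33.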

How the data were processed

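RNA of 6 libraries was measured by stranded total RNA sequencing. The values the authors deposited are log2 CPM for 8520 genes. Their tools, per the submitters' processing notes, were STAR 2.3.0, CASAVA 1.8.2 and limma, with genome build mm10. The sources used here do not give how reads were counted, on which annotation, with or without strand, and how low genes were removed. Solving the voom formula (0.5 added to each count) gave whole reads in 100% of values within 0.001 read. The library total was solved in the same step. A scaling factor common to all genes of a library would be held in that total and was not tested for. The reads of the 8520 genes fell short of the solved totals by 1.43% to 1.71%. The smallest count was 8 and the median gene had 1567.5 to 1945.5 reads per library. CPM in the text is 2 to the power of the deposited value.

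Gene numbers were matched to RefSeq names and coordinates of GRCm38.p6, the assembly mm10 represents, for 8429 genes. Transcript lengths and shared windows come from GENCODE M21 (same assembly). The log2 values of Ly49G+ and Ly49I+ were compared by limma 3.58.1 (R 4.3.3) with an intensity trend, two-sided, and Benjamini-Hochberg adjustment over all 8520 genes at 0.05. The fit was tested on simulated data. Alternatives were no trend, a robust prior, median-of-ratios centring, quantile normalization, log2(CPM + 1), a minimum mean of 4, the replicate block and leaving out each library. Deviations from the group means correlated at 0.37, 0.11 and 0.16 between same-numbered libraries of the 2 populations. Ly49G+ replicate 1 correlated best with its own number. Ly49G+ replicate 3 correlated more with Ly49I+ replicate 2 (0.36), and Ly49G+ replicate 2 slightly more with Ly49I+ replicate 1 (0.12). The correlations thus do not establish a pairing by number, and the labels do not say what a number marks. The block is given as an alternative only. With the block 993 genes were called, against 306 without it.

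The members and lists were chosen with earlier results of these data known. Named are every measured member, the called genes of each list (at most 6), list genes that a result needs, the 5 genes most like Cd3e, Cd3g and Trac, and the 3 nearest measured neighbours on each side of the CD3 cluster. Tables and plots used Python 3.11.15, numpy 2.4.6, pandas 2.3.3 and matplotlib 3.10.9.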

Additional observations from a re-analysis of the deposited data

How the results depend on the processing

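The replicate block raised the number of genes called to 993, 485 higher in Ly49G+ and 508 higher in Ly49I+, against 306, 155 and 151 without it. It gave 5 T cell surface and lineage genes, 3 adaptors and effectors and 3 negative regulators, against 3, 1 and 1. It also added the calls of Trbc2, Il10ra, Cep164, Nkg7, Ighm, Itgax, Cd68 and Cst3 given above, and removed none of the list calls named there. Leaving out 1 library gave 94 to 644 called genes, 45 to 297 higher in Ly49G+ and 49 to 347 higher in Ly49I+, and 5 called among the 8 CD3 and T cell receptor genes each time. Over the lists it gave 1 to 4 T cell surface and lineage genes, 0 to 3 gamma delta and NKT cell genes, 0 to 1 proximal kinases, 1 to 2 adaptors and effectors, 0 to 2 negative regulators and 0 to 1 zeta-linked genes. Fewer libraries also mean less power. The count nevertheless rose to 644 without Ly49I+ replicate 1, while the other omissions gave 94 to 293 called genes. A minimum mean log2 CPM of 4 gave 127 genes higher in Ly49G+, 96 higher in Ly49I+ and 223 in either direction, among fewer genes tested. Of the 8 it gave 2 called, Cd3g and Cd28, as higher in Ly49G+. It removes Cd3e, Cd3d and Trac, which were thus not tested there. Without the intensity trend 0 of the zeta-linked genes passed.

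The log2 differences of the 8 genes kept their direction under the alternatives run. Quantile normalization moved the Cd3d log2 difference to 2.18, the Cd3e log2 difference to 4.35 and the Trac log2 difference to 2.40, and log2(CPM + 1) moved that of Cd3e to 2.81. The cause was not tested, except that an added CPM shrinks differences of low genes by construction. Median-of-ratios centring and quantile normalization shifted the median of all genes by 0.006 and 0.02. Counted per kb of all annotated exons, a length chosen after seeing the data, the levels in Ly49G+ and Ly49I+ were 3.21 and 0.235 CPM per kb for Cd3e, 10.6 and 3.23 for Cd3g, 46.8 and 49.9 for Cd247 and 22.0 and 13.5 for Cd28, and Cd3d in Ly49I+ was 3.29. With 20 to 47 reads of Cd3e in the Ly49I+ libraries, its fold rests on few counts there. The spread between libraries limits all 8 genes. It was widest for Cd3e, with a coefficient of variation of 36.9% in Ly49G+ and 34% in Ly49I+.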
